A study of Rattus norvegicus with 20 samples.

Results

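The 6 enzymes described here carry methionine through its cycle in the liver and pass its sulfur on to cysteine. They were chosen by name, as the array features (probe sets) annotated to exactly 1 of Mat1a, Gnmt, Ahcy, Bhmt, Cbs and Cth. Each of the 6 had 1 such probe set, so 6 of the 15866 probe sets other than controls are described, and all 6 were among the 9520 brighter probe sets that were tested. Mat1a encodes the methionine adenosyltransferase of adult liver, which turns methionine into S-adenosylmethionine, the methyl donor of most methylation reactions. Gnmt encodes glycine N-methyltransferase, an abundant liver enzyme that uses up S-adenosylmethionine by methylating glycine, and Ahcy encodes the hydrolase that splits the S-adenosylhomocysteine left by methyl transfer into homocysteine and adenosine. Homocysteine then has 2 fates. Bhmt, betaine-homocysteine methyltransferase, returns it to methionine with a methyl group from betaine, whereas Cbs, cystathionine beta-synthase, joins it to serine, and Cth, cystathionine gamma-lyase, releases cysteine from the product. The liver is the main organ of this pathway, and cysteine made there feeds glutathione and taurine synthesis.

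Liver RNA came from male Wistar rats, a laboratory strain, and was measured on Affymetrix rat expression arrays. In the restricted groups food was cut by 5, 10, 20 or 30% for 1 month or 1 week, and the control groups had no restriction. All rats, controls included, went without food for 16 h before liver removal, so every value describes fasted liver. Restriction began when the rats were 6 weeks old. The age label is 9 weeks on the 1 month arrays and 6 weeks on the 1 week arrays, and the labels do not say at which point it was taken. The RNA of 5 rats was combined into 1 pool for each of the 10 combinations of diet and duration, and 10 ug of each pool was run on 2 arrays, which gave 20 arrays. The spread between rats was therefore not measured, no condition had a repeated pool, and p-values rest on how far the 10 pools lay from the fitted line or step.

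Levels are normalized signal units after quantile normalization, and a pool's level is the geometric mean of its 2 arrays. Deposited array medians ran from 14 to 33.2 signal units before that step. Arrays of 1 pool correlated at 0.948 to 0.971 over all probe sets, and arrays of different pools at 0.916 to 0.970. The SD between paired arrays had a median between 0.0328 (Cth) and 0.103 (Bhmt) on the log2 scale for the 6 enzymes, and of 0.157 over all tested probe sets. Of 7 hepatocyte markers 6 were measured. Alb was the brightest probe set on every array, so quantile normalization fixed it at 10756 signal units and it could not move. Of the other 5, limma called 0 in the dose trend or restriction step, and their summed level was 21291 to 23689 signal units in restricted pools and 22690 to 23236 in control pools. In these bulk pools, fewer cells of a type and less RNA per cell cannot be told apart.

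The promoters of 4 of the enzymes are shown because their levels ran together in 2 pairs, Mat1a with Ahcy and Bhmt with Cth. Each is the 250 bases before the annotated start, from RefSeq on the GRCr8 rat assembly, 5′ to 3′ on the gene's strand, at chr16:17016918-17017167 (plus strand) for Mat1a, chr3:164044563-164044812 (minus strand) for Ahcy, chr2:26614430-26614679 (minus strand) for Bhmt and chr2:249661067-249661316 (minus strand) for Cth. Capitals mark matches, on either strand, to the E-box (CACGTG), the GC box (GGGCGG), the cAMP response element (TGACGTCA), the C/EBP-ATF response element (TGATGNAA), the CCAAT box and the core of the TATA box (TATAA), none of which overlapped here.
Mat1a: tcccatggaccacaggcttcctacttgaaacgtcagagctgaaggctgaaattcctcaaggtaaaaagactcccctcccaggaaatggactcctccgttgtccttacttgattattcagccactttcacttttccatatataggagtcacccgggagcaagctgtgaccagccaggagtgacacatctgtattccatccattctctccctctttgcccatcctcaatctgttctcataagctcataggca
Ahcy: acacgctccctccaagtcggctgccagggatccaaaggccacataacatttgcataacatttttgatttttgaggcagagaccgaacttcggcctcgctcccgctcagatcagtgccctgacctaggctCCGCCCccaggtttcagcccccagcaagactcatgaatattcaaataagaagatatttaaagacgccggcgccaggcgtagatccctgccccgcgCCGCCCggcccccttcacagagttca
Bhmt: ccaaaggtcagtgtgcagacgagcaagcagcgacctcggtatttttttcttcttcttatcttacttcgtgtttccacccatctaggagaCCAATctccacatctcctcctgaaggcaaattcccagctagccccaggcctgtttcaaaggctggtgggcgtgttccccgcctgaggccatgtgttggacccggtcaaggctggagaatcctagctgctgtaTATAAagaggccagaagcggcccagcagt
Cth: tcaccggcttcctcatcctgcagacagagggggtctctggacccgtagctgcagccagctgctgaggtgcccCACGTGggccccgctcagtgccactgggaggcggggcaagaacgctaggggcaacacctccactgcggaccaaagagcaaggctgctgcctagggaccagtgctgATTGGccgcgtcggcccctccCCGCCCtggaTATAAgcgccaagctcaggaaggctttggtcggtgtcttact
The Mat1a window held none of the 6 motifs. The Ahcy window held 2 GC boxes on the reverse strand, the nearer at -26 to -21 from the start. The Bhmt window held a TATAA at -29 to -25 and a CCAAT at -161 to -157. The Cth window held a TATAA at -42 to -38, a CACGTG at -178 to -173, a reverse GC box at -52 to -47 and a reverse CCAAT at -73 to -69. Over 33469 rat promoter windows of this length, TATAA was in 23.97%, CACGTG in 5.593%, GGGCGG in 30.47%, CCAAT in 34.02%, TGACGTCA in 1.587% and TGATGNAA in 3.403%. Base composition differed between the 4 windows, with a GC content of 48% for Mat1a, 56% for Ahcy, 53.6% for Bhmt and 64.8% for Cth, beside a median of 51.2% over all windows. A motif match is a run of letters in the window and not a measured binding site.

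The first comparison asked how liver expression follows graded food restriction at both durations. Mat1a and Ahcy rose with restriction, and Cth was lower in every restricted pool than in either control pool. Bhmt had lower values in 7 of the 8 restricted pools without passing the test, and Gnmt and Cbs spanned narrow ranges. In the dose trend over both durations, 2 of the 6 enzymes rose, 0 fell and 4 did not pass, where 3.76% of all tested probe sets passed (limma, Benjamini-Hochberg adjusted p below 0.05). In the restriction step, which sets the 8 restricted pools against the 2 control pools, Mat1a rose, Cth fell and 4 did not pass, where 5.27% of all tested probe sets passed. Both tests use the same 10 pools. Over the 6 enzymes the median dose trend was 0.11 on the log2 scale, beside 0.0034 over all tested probe sets, and the median size of the trend regardless of sign was 0.68, beside 0.19.

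Mat1a (probe set 1371031_at), the enzyme that makes S-adenosylmethionine, had 2425 signal units in the 1 month control pool and 3407, 3691, 3630 and 3681 units at 5, 10, 20 and 30% restriction. At 1 week it had 1817 units in the control pool and 2264, 2466, 3079 and 3473 units at the same levels. All 4 restricted pools lay above the control pool of their duration, and in all 8 restricted pools both arrays lay above both control arrays. The 1 month pools were already near their highest level at 5% restriction, whereas the 1 week pools stood in strict order of restriction. Per 30 percentage points of restriction Mat1a rose by a log2 value of 0.67 ± 0.13 (SE, n = 10 pools), a 1.59-fold higher signal (limma adjusted p = 0.0181). In the restriction step it rose by 0.59 ± 0.12 (adjusted p = 0.0151). The trend no longer passed without the 1 month control pool (0.59, adjusted p = 0.0726), the 1 week control pool (0.57, adjusted p = 0.0608) or the 1 week 30% pool (0.62, adjusted p = 0.108). The step no longer passed without the 1 month control pool (0.61, adjusted p = 0.169) or the 1 week control pool (0.57, adjusted p = 0.155).

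Ahcy (probe set 1367798_at), which removes S-adenosylhomocysteine, had 1392 signal units in the 1 month control pool and 1522, 1701, 1897 and 1999 units at 5, 10, 20 and 30% restriction. The 1 week levels were 1087 units in the control pool and 1129, 1207, 1401 and 1994 units. The pools were in strict order of restriction at both durations, the only one of the 6 enzymes with that order in both, where 0.536% of all tested probe sets had it. The 1 week 5% pool was the only restricted pool whose arrays overlapped those of its control. Ahcy rose by a log2 value of 0.69 ± 0.090 (SE, n = 10 pools) per 30 percentage points, 1.61-fold (limma adjusted p = 0.00408), and ranked at place 12 of the 9520 probe sets by p. This call held without each pool in turn, with slopes between 0.53 and 0.81. As a single step the difference was 0.35 ± 0.16 (adjusted p = 0.265), which did not pass.

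**Figure D1:**
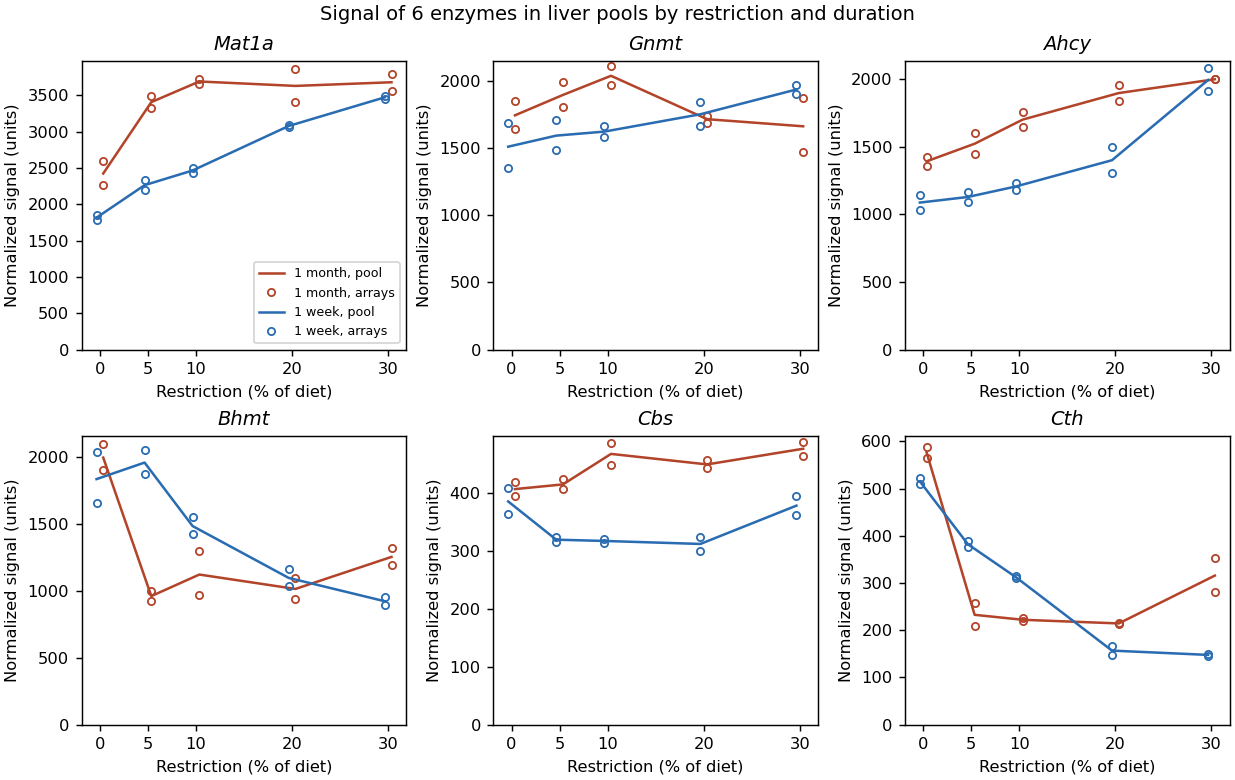
Normalized signal (y axis, linear, from 0) of the 6 enzymes against percent restriction of the diet (x axis), with circles for the 2 arrays of a pool and lines through the pool values, 1 month in red and 1 week in blue. Mat1a and Ahcy climb with restriction, Cth at 148 to 382 units in restricted pools lies under both control pools at 577 and 515 units, and Gnmt and Cbs stay within 1.35-fold and 1.53-fold ranges.

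Cth (probe set 1367838_at), which releases cysteine at the end of the pathway, had 577 signal units in the 1 month control pool and 233, 222, 214 and 316 units at 5, 10, 20 and 30% restriction. The 1 week levels were 515 units in the control pool and 382, 312, 157 and 148 units. The 8 restricted pools ran from 148 to 382 units and did not overlap the 2 control pools at 577 and 515 units. Cth was the only one of the 6 enzymes with all restricted pools on one side of both controls, where 14.3% of all tested probe sets had that property. In the restriction step Cth fell by 1.21 ± 0.29 in log2 units (SE, n = 10 pools), a 2.31-fold lower signal (limma adjusted p = 0.0307). Its dose trend was -1.22 ± 0.37 (adjusted p = 0.0909) and did not pass. The step no longer passed without the 1 month control pool (-1.17, adjusted p = 0.275), the 1 week control pool (-1.25, adjusted p = 0.215), the 1 month 10% pool (-1.18, adjusted p = 0.0561), the 1 month 20% pool (-1.18, adjusted p = 0.0568) or the first array of every pool (-1.20, adjusted p = 0.0508). Without the 1 month 30% pool, the highest of the 1 month restricted pools, the dose trend passed (-1.87, adjusted p = 0.0109), as it did without the 1 month 5% pool (-1.40, adjusted p = 0.0399).

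Bhmt (probe set 1387665_at), which remethylates homocysteine with betaine, had 1998 signal units in the 1 month control pool and 962, 1124, 1016 and 1256 units at 5, 10, 20 and 30% restriction. At 1 week it had 1838 units in the control pool and 1961, 1486, 1098 and 924 units. The 1 week 5% pool was the only restricted pool above its control, and its arrays overlapped those of the control. The restriction step was -0.68 ± 0.21 in log2 units (SE, n = 10 pools; limma adjusted p = 0.0819) and the dose trend -0.76 ± 0.24 (adjusted p = 0.105), and neither passed. Without the 1 month 30% pool the trend was -1.13 (adjusted p = 0.0238), and without the 1 month 5% pool it was -0.91 (adjusted p = 0.0239), so that in each of these fits 4 of the 6 enzymes passed. The step passed without the 1 week 5% pool (-0.78, adjusted p = 0.00542) and with median centring in place of quantile normalization (-0.73, adjusted p = 0.0491).

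Gnmt (probe set 1387672_at), which consumes S-adenosylmethionine, had 1742 signal units in the 1 month control pool and 1894, 2037, 1714 and 1661 units at 5, 10, 20 and 30% restriction. At 1 week it had 1509 units in the control pool and 1592, 1621, 1750 and 1935 units. The 1 week pools stood in strict order of restriction and the 1 month pools lay on both sides of their control, but arrays of only 2 restricted pools lay apart from their control's arrays. The dose trend of Gnmt was 0.095 ± 0.10 in log2 units (SE, n = 10 pools; limma adjusted p = 0.683) and the step 0.13 ± 0.088 (adjusted p = 0.49).

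Cbs (probe set 1387178_a_at), which commits homocysteine to cysteine synthesis, had 407 signal units in the 1 month control pool and 415, 468, 450 and 477 units at 5, 10, 20 and 30% restriction. The 1 week levels were 386 units in the control pool and 320, 317, 312 and 378 units. All 4 restricted pools lay above the control pool at 1 month and all 4 below it at 1 week. The dose trend was 0.12 ± 0.11 in log2 units (SE, n = 10 pools; limma adjusted p = 0.627) and the step -0.035 ± 0.10 (adjusted p = 0.903), and neither passed. Of the 6 enzymes, Mat1a, Ahcy and Cth had all 4 restricted pools on the same side of the control in both durations, where 21.5% of all tested probe sets did.

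Each restricted pool was also set against the control pool of its duration by size alone, with no test. The rule asked for a log2 difference of 1 or more and for no overlap between the arrays of the restricted pool and those of its control. Cth met it on the low side at 1 month with 5% (-1.31), 10% (-1.38) and 20% restriction (-1.43), and at 1 week with 20% (-1.72) and 30% (-1.80). Bhmt met it at 1 month with 5% restriction (-1.05), and Mat1a, Ahcy, Gnmt and Cbs met it in none of the 8 pools. The rule took 5.62, 5.96, 4.72 and 4.96% of all tested probe sets at 5, 10, 20 and 30% restriction at 1 month, and 3.78, 3.62, 4.93 and 5.87% at 1 week. Regardless of size, arrays lay apart in 8 of 8 restricted pools for Mat1a and for Cth, in 7 for Bhmt and for Ahcy, in 6 for Cbs and in 2 for Gnmt, where 48.9% of all comparisons of a tested probe set with its control did. The highest ratios to control were 1.91-fold for Mat1a and 1.83-fold for Ahcy, both in the 1 week 30% pool.

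The separate slopes asked whether the response to graded restriction held at each duration. At 1 week 2 of the 6 enzymes rose and 4 did not pass, where 0.714% of all tested probe sets passed. Ahcy rose by a log2 value of 0.86 ± 0.11 (SE, from 1 fit over n = 10 pools) per 30 percentage points (limma adjusted p = 0.0202) and Mat1a by 0.90 ± 0.17 (adjusted p = 0.0454). The 1 week slopes of the other enzymes were -1.91 ± 0.46 for Cth (adjusted p = 0.0832), -1.13 ± 0.32 for Bhmt (adjusted p = 0.117), 0.34 ± 0.11 for Gnmt (adjusted p = 0.154) and 0.021 ± 0.16 for Cbs (adjusted p = 0.967). The 1 week pools of Mat1a, Gnmt and Ahcy stood in increasing order of restriction and those of Cth in decreasing order, and a strict order was held by 5.55% of all tested probe sets. The Ahcy call was lost without the 1 week control pool (0.96, adjusted p = 0.0927), the 1 week 5% pool (0.85, adjusted p = 0.0801) or the 1 week 30% pool (0.56, adjusted p = 0.21). Without the 1 month control pool Cth (adjusted p = 0.00155) and Bhmt (adjusted p = 0.00174) passed as well, with the same slopes. The Mat1a call was lost without any 1 of 6 pools, namely each of the 5 pools at 1 week (0.76 to 1.09, adjusted p from 0.0665 to 0.241) and the 1 month 20% pool (0.90, adjusted p = 0.0777), and without the first array of every pool (0.86, adjusted p = 0.0821).

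At 1 month limma called 0 of the 6 enzymes, 2 of which had an unadjusted p below 0.05, where 0.0315% of all tested probe sets passed and 995 of 9520 had an unadjusted p below 0.05. The 1 month slope was 0.52 ± 0.11 for Ahcy (SE, adjusted p = 0.148), 0.44 ± 0.17 for Mat1a (adjusted p = 0.374), -0.53 ± 0.46 for Cth (adjusted p = 0.765) and -0.38 ± 0.32 for Bhmt (adjusted p = 0.755) on the log2 scale. It was -0.15 ± 0.11 for Gnmt (adjusted p = 0.687) and 0.21 ± 0.16 for Cbs (adjusted p = 0.708). Ahcy alone of the 6 was in strict order of restriction at 1 month, an order that 4% of all tested probe sets had. The 1 month values of Cth and Bhmt lay below control at every level of restriction with no order among the 4 levels, and without the 1 month control pool their slopes turned positive, to 0.49 and 0.34. The Mat1a slope at 1 month was 0.094 without the 1 month control pool and 0.75 without the 1 month 30% pool.

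**Figure D2:**
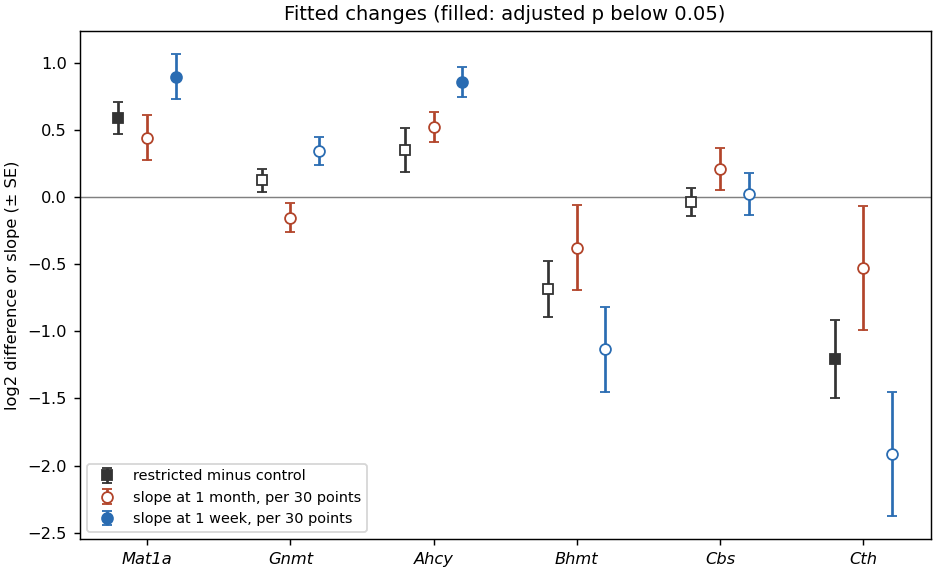
Fitted log2 values (y axis) of the 6 enzymes (x axis), with squares for the restriction step, red circles for the 1 month slope and blue circles for the 1 week slope over 30 percentage points; bars are ± SE and filled symbols passed at an adjusted p below 0.05. Mat1a is filled for the step (0.59) and the 1 week slope (0.90), Ahcy for the 1 week slope (0.86) and Cth for the step (-1.21), and no 1 month slope is filled.

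The slopes of the 2 durations were compared directly. By this test limma called 0 of the 6 enzymes and 0% of all tested probe sets. The unadjusted p was below 0.05 for 1 of the 6 and for 525 of all tested probe sets. The slope at 1 month minus the slope at 1 week was 1.39 ± 0.65 for Cth (SE, adjusted p = 0.921), 0.75 ± 0.45 for Bhmt (adjusted p = 0.927) and -0.50 ± 0.15 for Gnmt (adjusted p = 0.903) on the log2 scale. It was -0.45 ± 0.24 for Mat1a (adjusted p = 0.927), -0.33 ± 0.16 for Ahcy (adjusted p = 0.921) and 0.19 ± 0.22 for Cbs (adjusted p = 0.965). The larger 1 week slopes of Mat1a, Ahcy, Cth and Bhmt were therefore not shown to differ from their 1 month slopes. Without the 1 month control pool, 2 of the 6 enzymes passed, Cth at 2.40 and Bhmt at 1.47 (adjusted p = 0.0470 for both). Without the 1 month 30% pool the same differences were only 0.15 for Cth and 0.027 for Bhmt.

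Duration itself, 1 month against 1 week with percent restriction as a covariate, was called for 1 of the 6 enzymes, where 0.336% of all tested probe sets passed. Ahcy was higher at 1 month by a log2 value of 0.35 ± 0.064 (SE, n = 10 pools; limma adjusted p = 0.04997), a value at the threshold. Leaving out any of 8 of the 10 pools ended the call, with values of 0.32 to 0.35, and only without the 1 month 30% pool (0.40) or the 1 week 30% pool (0.42) did it pass. Without the 1 month 30% pool Mat1a passed as well (0.47, adjusted p = 0.0475), and without the 1 week control pool Cbs passed and Ahcy did not (0.44 for Cbs, adjusted p = 0.0253). The 1 month minus 1 week difference was 0.37 ± 0.078 for Cbs (adjusted p = 0.0754) and 0.38 ± 0.094 for Mat1a (adjusted p = 0.122). It was 0.11 ± 0.074 for Gnmt (adjusted p = 0.661), 0.10 ± 0.26 for Cth (adjusted p = 0.93) and -0.20 ± 0.17 for Bhmt (adjusted p = 0.745). In Cbs, alone of the 6 enzymes, the 1 month pools at 407 to 477 units did not overlap the 1 week pools at 312 to 386 units, where 1.95% of all tested probe sets had no overlap. Duration, the age on the labels and any difference in when the animals were handled changed together and cannot be told apart.

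Across the 10 pools 4 of the enzymes formed 2 pairs, described here with no test because all values share the same pools and diets. Pearson's r of the log2 pool levels was 0.91 between Mat1a and Ahcy and 0.91 between Bhmt and Cth (n = 10). Mat1a ran against both members of the other pair, with r of -0.86 to Bhmt and -0.74 to Cth, and Gnmt was closer to Mat1a (r = 0.74) than to Ahcy (r = 0.62). Cbs and Cth, which act one after the other, had r = 0.030.

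By the same measure, the genes most like each enzyme among the named genes tested are given as a description only. For Mat1a they were Trim36, Ppm1k and Rhbdd2 (each r = 0.98, n = 10 pools). For Ahcy they were Larp1 (r = 0.96), Kmo (r = 0.95) and Auh (r = 0.94), and for Gnmt Ubxn1 (r = 0.93), Pcbp1 and Thap11 (each r = 0.91). For Bhmt they were Srprb (r = 0.97), Kynu and Pnkd (each r = 0.95), for Cbs Mtmr7, Xpnpep2 and Gls2 (each r = 0.94), and for Cth Slc16a1 and Mrps16 (each r = 0.97) and Pnkd (r = 0.96). Pnkd appeared for both Bhmt and Cth. These were the highest values among 7056 named genes over n = 10 pools. Some of these genes were low in signal, such as Trim36 at 3.09 to 31.3 units and Thap11 at 7.15 to 26.4 units over the pools.

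Genes around the 6 enzymes were taken from 6 lists of 57 genes in all, of which 40 were measured, 4 lay under the signal filter and 13 had no probe set with that gene alone. In the dose trend 3 of the 40 rose, 3 fell and 34 did not pass, where 3.76% of all tested probe sets passed. In the restriction step 4 rose, 1 fell and 35 did not pass, where 5.27% of all tested probe sets passed. In the 1 week slope 1 rose, where 0.714% of all tested probe sets passed. In the 1 month slope, the difference between slopes and duration 0 passed, where 0.0315%, 0% and 0.336% of all tested probe sets did. The median dose trend over the 40 was 0.10 on the log2 scale and the median step 0.0027, beside 0.0034 and 0.0023 over all tested probe sets.

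Of 6 measured genes of folate-dependent remethylation, Shmt1 rose and Gldc fell. Shmt1, the cytosolic serine hydroxymethyltransferase, had 271 to 366 signal units in restricted pools and 204 and 199 units in the 1 month and 1 week control pools, and rose by 0.62 ± 0.10 in the step (SE, limma adjusted p = 0.00537). Gldc, the decarboxylase of the glycine cleavage system, had 41.3 to 80.6 units in restricted pools and 153 and 119 units in control pools, and fell by 1.19 ± 0.20 in the step (adjusted p = 0.0055) and by 1.16 ± 0.29 in the trend (adjusted p = 0.0461). Neither gene's restricted pools overlapped its control pools, where 14.3% of all tested probe sets had all restricted pools on 1 side of both controls. Mtr, the methionine synthase that uses folate in place of betaine, lay under the signal filter at 2.50 to 12.1 units. Of 5 measured genes of choline and betaine supply 0 passed in limma, and Pemt, which makes phosphatidylcholine with S-adenosylmethionine, had a trend of -0.059 (adjusted p = 0.733) and a step of -0.017 (adjusted p = 0.933).

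Of 5 other genes listed under S-adenosylmethionine synthesis and S-adenosylhomocysteine removal, Mat2a and Adk rose. Mat2a, the catalytic subunit of the methionine adenosyltransferase found in most tissues outside the liver, had 42.3 to 71.8 signal units in restricted pools and 36.6 and 34.7 units in the 1 month and 1 week control pools. It rose by 0.77 ± 0.16 in the step (SE, limma adjusted p = 0.0177), its second probe set had a step of 0.57 (adjusted p = 0.158), and its trend was 0.71 (adjusted p = 0.101). Adk, the kinase that removes adenosine, rose by 0.24 ± 0.056 in the trend (adjusted p = 0.0353) and by 0.47 on its second probe set (adjusted p = 0.0061).

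Of 11 genes grouped with the methyl-accepting enzymes 6 were measured and 1 rose. Among the 6, Gatm and Dnmt1 were low in signal, at 9.63 to 19.3 and 5.81 to 24.1 units. Inmt, which methylates indolethylamines with S-adenosylmethionine, had 419 signal units in the 1 month control pool and 634, 616, 738 and 938 units at 5, 10, 20 and 30% restriction. At 1 week it had 144 units in the control pool and 352, 854, 965 and 1146 units. It rose by 1.84 ± 0.42 in the trend (SE, limma adjusted p = 0.0347), by 1.59 ± 0.39 in the step (adjusted p = 0.0319) and by 2.70 ± 0.51 in the 1 week slope (adjusted p = 0.0454), and without the 1 week control pool the step was 0.78 and did not pass (adjusted p = 0.479). The Inmt step lost the call without 4 of the 10 pools, left out one at a time, that control pool among them. The 1 week slope of Inmt lost the call without 7 of the 10 pools. Its slopes ran from 1.70 without the 1 week control pool to 4.02 without the 1 week 30% pool. Of 7 measured genes of polyamine synthesis and methionine salvage 2 rose. Amd1, which decarboxylates S-adenosylmethionine for polyamine synthesis, rose by 0.54 ± 0.11 in the step (adjusted p = 0.0178), and Odc1, ornithine decarboxylase, rose by 0.83 ± 0.18 in the trend (adjusted p = 0.0287).

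Of 11 measured genes of cysteine use 2 fell in the dose trend and 0 passed in the step. Ethe1, the mitochondrial persulfide dioxygenase of sulfide breakdown, had 188 to 260 signal units in restricted pools and 358 units in the control pool at 1 month, and 150 to 210 units in restricted pools and 227 units in the control pool at 1 week. It fell by 0.71 ± 0.11 in log2 units per 30 percentage points (SE, limma adjusted p = 0.00744). Csad, the decarboxylase that leads to taurine, fell by 0.57 ± 0.14 (adjusted p = 0.0466). At each duration all its restricted pools lay below control, where 21.5% of all tested probe sets kept to 1 side of control in both durations. Cdo1, the dioxygenase that commits cysteine to breakdown, had a trend of 0.10 (adjusted p = 0.53), and Gclc, the catalytic subunit of glutamate-cysteine ligase, had a trend of 0.37 (adjusted p = 0.304), and neither passed. The calls of Shmt1, Gldc, Mat2a and Amd1 in the step were each lost without either control pool, with steps of 0.62 and 0.63, -1.17 and -1.21, 0.76 and 0.77, and 0.60 and 0.48 without the 1 month and the 1 week control pool (adjusted p from 0.0749 to 0.198). In the dose trend the calls of Gldc, Adk, Csad, Odc1 and Inmt were lost without 8, 7, 7, 6 and 5 of the 10 pools, left out one at a time. That of Ethe1 held without each pool. It was lost without the second array of every pool (-0.53, adjusted p = 0.0657) and on the signals as deposited (-0.62, adjusted p = 0.494). Without the second array of every pool the Gldc trend (adjusted p = 0.0800) and the steps of Mat2a (0.49, adjusted p = 0.281) and Amd1 (0.46, adjusted p = 0.14) were lost too. The trends of Adk and Csad were lost without either array number (adjusted p from 0.0717 to 0.0862) and that of Odc1 without the first (adjusted p = 0.148).

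**Figure D3:**
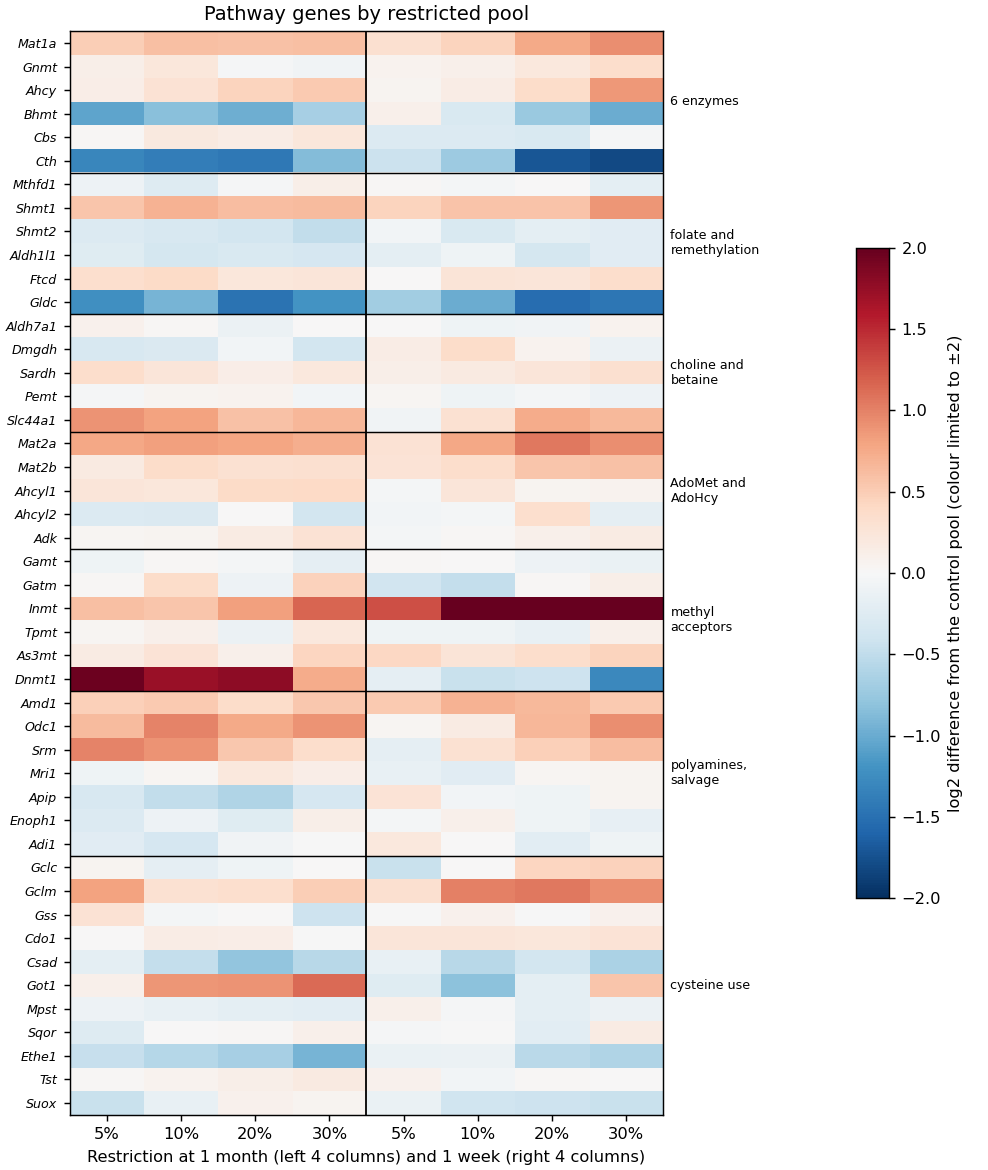
Log2 difference of each restricted pool from the control pool of its duration (colour, limited to ±2) for the 6 enzymes and the 40 measured pathway genes (rows, by list), with 1 month pools on the left and 1 week pools on the right. Mat1a, Ahcy, Shmt1, Mat2a and Inmt are among the rows that are red in every or nearly every pool. Cth and Gldc are among the rows that are blue in all 8, and single-pool colours carry no test.

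Markers of other cell types were read in the same pools. Over all tested probe sets 3.76% passed in the trend and 5.27% in the step. Of 6 endothelial markers 5 had a probe set, with a summed level of 267 to 331 signal units in restricted pools and 204 to 246 units in control pools. Ehd3 rose in the trend (1.17, limma adjusted p = 0.0135) but did not pass in the step (0.42, adjusted p = 0.544). Kdr rose in the step (0.60, adjusted p = 0.00899) but did not pass in the trend (0.52, adjusted p = 0.116). Lyve1 (trend 0.41, step 0.24) and Pecam1 (trend 0.086, step -0.11) passed in neither, and Vwf lay under the filter. Of 5 bile duct markers 4 had a probe set, with a summed level of 42.8 to 59.9 units in restricted pools and 66.5 to 77.0 units in control pools. Of these only Epcam passed the filter, and it was not called in the trend or step. Krt19, Krt7 and Spp1 lay under the filter at 4.88 to 11.3, 4.13 to 22.8 and 1.47 to 8.06 units. The endothelial and bile duct sums did not overlap between restricted and control pools. Among single tested probe sets, 14.3% had all restricted pools on 1 side of both controls. The macrophage, stellate cell, red cell and kidney markers had 0 calls in the trend or step (limma), and their summed levels in restricted and control pools overlapped. Of 5 exocrine pancreas markers Cela1 was measured and fell in the trend (-0.53, adjusted p = 0.0477), while Prss1, Cpa1 and Pnlip lay under the filter. The part of these cell types in the values of the 6 enzymes was not tested.

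The ratio of 3′ to 5′ actin signal, a measure of RNA integrity computed from the deposited signals, was lowest in the 1 month and 1 week 30% pools and the same ratio for Gapdh was lowest in the 1 month 30% pool. The actin ratio was 2.28 and 2.23 in the 1 month and 1 week 30% pools, against 2.72 and 2.73 in the control pools of those durations, and it ran from 2.23 to 3.07 over all pools. With the actin ratio as a covariate the dose trends of Ahcy (0.63, limma adjusted p = 0.0509) and Mat1a (0.73, adjusted p = 0.0923) no longer passed, while the steps of Mat1a and Cth still did. With the Gapdh ratio as a covariate Ahcy passed in the trend and Mat1a in the step, and neither the Mat1a trend (0.81, adjusted p = 0.114) nor the Cth step (-1.18, adjusted p = 0.0602) did. On the signals as deposited, without normalization between arrays, the trends of Mat1a (0.81, adjusted p = 0.179) and Ahcy (0.80, adjusted p = 0.137) did not pass. Among the other pathway genes, the trends of Ethe1, Odc1, Csad, Adk and Inmt were lost with either ratio as a covariate (adjusted p from 0.0592 to 0.269). With the Gapdh ratio the Gldc trend (-1.49, adjusted p = 0.143) and the Inmt step (1.44, adjusted p = 0.0698) were lost too.

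**Figure D4:**
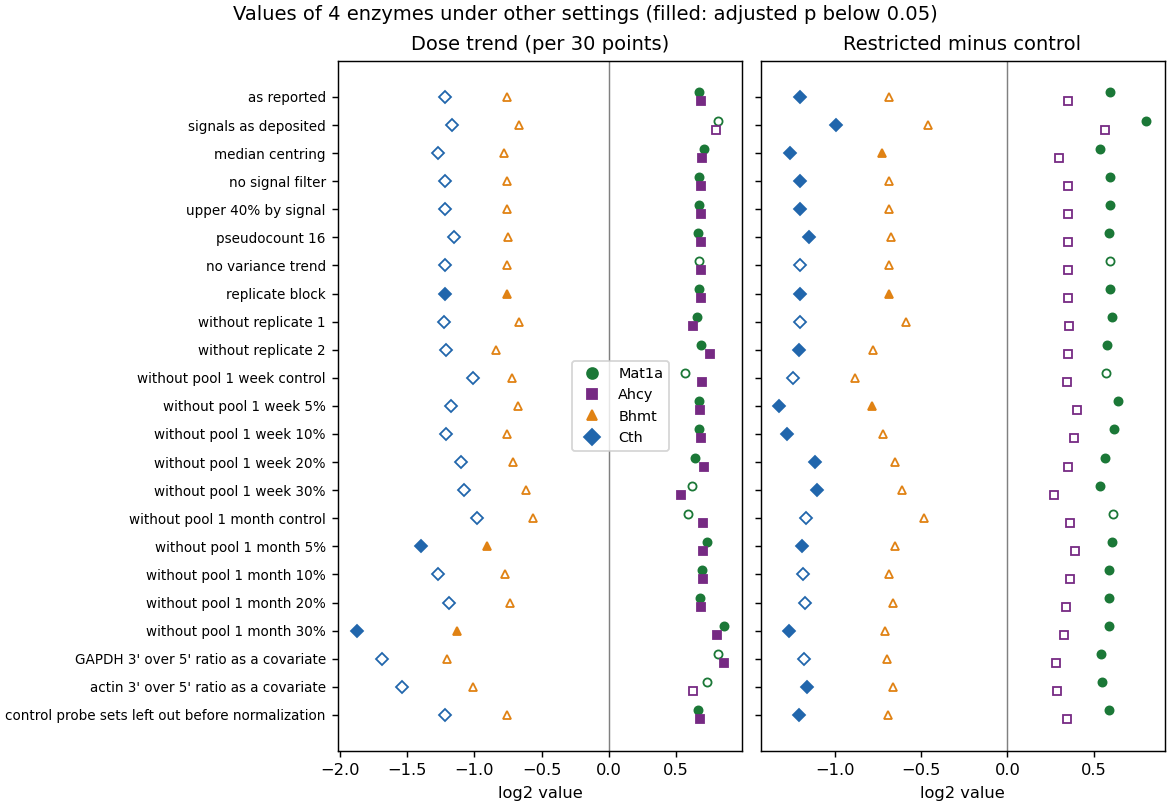
Log2 values (x axis) of Mat1a, Ahcy, Bhmt and Cth for the dose trend (left) and the restriction step (right) under each setting (rows); filled symbols passed at an adjusted p below 0.05. Mat1a and Ahcy stay above 0 and Bhmt and Cth below 0 in every row of both panels, while which symbols are filled differs between rows.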

How the data were processed

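Liver RNA of 10 pools was measured on 2 arrays each. The authors deposited 1 linear intensity value for each probe set and array. MAS5 produced these values, according to the submitters' processing notes. Its version is not given in the sources used here, nor is its scaling target. The 32 values of 0 were raised to that array's lowest value above 0, log2 was taken, and the 20 arrays were quantile normalized together with 57 control probe sets, which were then dropped. The upper 60% of probe sets by mean log2 signal were tested (lowest mean signal 11.7 units). The 2 arrays of a pool, technical repeats, were averaged, so the pool was the replicate (n = 10), and their number limits the precision. Array numbers did not pair pools (median correlation of deviations 0.0343).

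Each two-sided test was fitted with limma 3.58.1 (R 4.3.3; lmFit, then eBayes with a variance trend). P-values were adjusted by Benjamini-Hochberg over the 9520 probe sets, with 0.05 as the threshold. Slopes are log2 changes over 30 percentage points with duration as a covariate. The script was tested on simulated data. Genes were named from the platform annotation. The 6 enzymes were always named, other genes were named where they passed a test (at most 8 in each test), and Mat2a, Mtr, Cdo1, Csad, Gclc and Pemt were always named where measured. Where several probe sets named 1 gene alone, the brightest stood for it, and likeness was ranked by Pearson's r, the first 3 genes being given. Members, lists and tests were chosen with earlier results of these data known. Alternatives were unnormalized signals, median centring, no filter or the upper 40%, a pseudocount of 16, no variance trend, a replicate block, RNA quality covariates, and each array number or pool left out.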

Additional observations from a re-analysis of the deposited data

Results flagged for a closer look

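Mat1a in the 1 month control pool stood apart from the other 1 month pools. Its level was 2425 signal units, the nearest of the other 4 pools had 3407, and on the log2 scale the gap made up 0.809 of the whole range of the 5 pools, above the critical value of 0.71 for 5 values. All 4 of the others were restricted pools, so the pool that stands apart is the control. Over the 6 enzymes 18 such checks were run and only this value was flagged. Chance gives about 1 in 20 where the pools compared are alike. These pools differ by diet, so the check cannot tell an odd pool from a response to restriction. It uses the same values as the restriction step of Mat1a and adds nothing to that result.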

How the results depend on the processing

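Over 22 alternatives, the 7 calls of the 6 enzymes gave 154 values, of which 100 kept direction and call, 54 lost the call and 0 changed direction. Of 638 values of results that had not passed, 21 passed and 18 changed direction. The number of enzymes past the threshold was 2 in the dose trend, 2 in the restriction step, 2 in the 1 week slope, 0 in the 1 month slope, 0 in the difference between slopes and 1 for duration. On the signals as deposited it was 0 in the trend, 1 in the 1 week slope (Cth) and 0 for duration, and without a signal filter it was 1 in the 1 week slope. Without a variance trend it was 1 in the trend, 0 in the step and 0 in the 1 week slope. The Gapdh ratio as a covariate left 1 in the trend, 1 in the step and 1 in the 1 week slope, and the actin ratio left 0 in the trend and 0 in the 1 week slope. For duration it was 0 under median centring, no filter, no variance trend, either ratio, and control probe sets left out before normalization, which was chosen after seeing the data. With array number as a replicate block and pool as a random effect it was 4 in the trend, 3 in the step (with Bhmt) and 4 in the 1 week slope. In the same fit it was 1 in the 1 month slope (Ahcy) and 3 for duration, although the numbers mark no shared batch. That fit took single arrays, not pools, as its values, with a correlation within pools of only 0.228 in the trend. Arrays of the same pool thus counted nearly as separate replicates. The Cth trend stayed at -1.22 while its SE fell from 0.37 to 0.28, and the Bhmt trend stayed at -0.76 while its SE fell from 0.24 to 0.19. The added calls of this fit, which are part of the 21 above, therefore do not rest on more pools. Leaving out 1 array number or 1 pool gave 1 to 4 enzymes in the trend, 0 to 3 in the step, 0 to 4 in the 1 week slope, 0 in the 1 month slope, 0 to 2 in the difference and 0 to 2 for duration. Cbs had a step of 0.17 on the signals as deposited, a 1 week slope of -0.012 under median centring and -0.14 with the actin ratio, and a trend of -0.019 with the actin ratio. Pemt had a trend of 0.040 and a step of 0.21 on the signals as deposited, and Gclc a step of -0.022 when the Gapdh ratio was a covariate and -0.0037 when the actin ratio was. With 1 array number or pool left out, Gnmt ran from -0.067 to 0.26 in the trend, -0.032 to 0.28 in the step and -0.41 to 0.10 at 1 month, and Cbs from -0.22 to 0.15 in the step, -0.38 to 0.27 at 1 week and -0.058 to 0.59 in the difference. Bhmt ran from -1.11 to 0.34 at 1 month, Cth from -1.76 to 0.49 at 1 month and -0.20 to 0.27 for duration, Gclc from -0.055 to 0.12 and Pemt from -0.051 to 0.016 in the step. The cause was not tested. With 2 control pools in all, the step depends on both, and 1 pool a condition limits every value.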
